A study of Mus musculus with 4 samples.

Results

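The collagen chain genes were compared between normal and high glucose in cultured cells labelled as cavernous endothelial cells of the mouse (Mus musculus), which line the blood spaces of the corpus cavernosum. Members were all gene symbols of the form Col, number, a, number, and 44 of the 23238 symbols in the count files fitted it. Of these 44, 38 had enough counts to be tested. Each group held 2 libraries, named replicates 1 and 2 in normal glucose and replicates 2 and 4 in high glucose. Both groups were grown in medium 199 with fetal bovine serum, penicillin, streptomycin and heparin, and glucose treatment lasted 72 hours. Strain, age, glucose concentrations and an osmotic control were not given in the sources used here, and nothing says that replicates were separate cultures or animals, so a p-value here reflects library-to-library spread that could be purely technical.

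Collagens are the main structural proteins of connective tissue. Each molecule winds like or unlike chains into one helix, in which glycine recurs at a fixed spacing, and the classes differ in what the helices build. Fibrillar collagens form the tension-bearing fibrils, type IV collagens form the sheet under endothelium and epithelium, beaded filament collagens (type VI) form fine networks around cells, and FACIT collagens sit on the surface of fibrils. In the corpus cavernosum, type I and III fibrils surround the blood spaces, and the endothelium rests on a type IV sheet.

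Total counts per library ran from 46571770 to 74971589. Levels are given as CPM, counts relative to library size after edgeR's TMM scaling. The label of endothelial cells was checked against 12 endothelial markers. Of these, 7 had a mean under 1 CPM, Cldn5 had no count in 3 of the 4 libraries, and their summed level was 51.1 to 85.9 CPM (normal glucose 65.7 and 85.9, high glucose 51.1 and 56.7), while 8 fibroblast markers summed to 6690 to 9456 CPM (normal 6690 and 7592, high 9456 and 7321). Single genes carried these sums. Dcn held most of the fibroblast sum, with 5070 and 5718 CPM in normal and 7598 and 5463 CPM in high glucose. Most of the endothelial sum came from Flt1 (20.3 and 24.4 against 13.6 and 14.5 CPM) and Esam (33.3 and 46.1 against 25.6 and 29.9 CPM). In such bulk libraries fewer cells of a type and less RNA per cell cannot be told apart. Summed levels in the same order of libraries were 493, 712, 500.2 and 509 CPM for 8 pericyte and smooth muscle markers, 109.5, 173, 79.8 and 96.6 CPM for 8 chondrocyte and osteoblast markers, 16.2, 14.6, 7.28 and 6.82 CPM for 6 epithelial markers and 8.86, 5.28, 7.80 and 7.67 CPM for 5 Schwann cell markers. None of the 40 tested markers passed the test between the groups (edgeR, adjusted p of at least 0.285), and 7 had an unadjusted p under 0.05 (Krt19, Sox9, Flt1, Cspg4, Hapln1 and Esam lower, Rgs5 higher in high glucose), beside 3.23% of all genes lower and 2.22% higher at that p. The part that any of these markers' cells play in the collagen levels was not tested.

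Normal glucose replicate 2 stood apart by GC content. Its deviation from the mean of the 4 libraries had a correlation with transcript GC content of 0.378 across 15604 genes (a description, since genes are not independent), against -0.201 to -0.112 in the other 3. Genes with at least 55.5% GC had a median deviation of 0.286 (log2) in that library, and genes with at most 43.9% had -0.199. The longest transcripts of the 44 members had 45.9% to 62.9% GC, so members lay on both sides of the upper of these bounds.

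The repeat that defines a collagen chain is visible in the coding sequences, taken here from GENCODE release M21 on GRCm38, the assembly also called mm10. Shown 5′ to 3′ are the first 10 units of each chain's longest unbroken run of 9-base units that begin with a glycine codon. Capitals mark the glycine codons, and the coordinates span introns that are not printed. These 7 chains were chosen because Col1a1 with Col1a2 and Col5a1 with Col5a2 are partners whose ratios are compared below, Col3a1 is the other main fibrillar chain, and Col6a3 and Col4a1 are the most abundant chains of 2 other classes.
Col1a1 (chr11:94939451-94939939, plus strand): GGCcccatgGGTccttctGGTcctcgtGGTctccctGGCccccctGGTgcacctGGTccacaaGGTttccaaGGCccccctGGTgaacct
Col1a2 (chr6:4512406-4515516, plus strand): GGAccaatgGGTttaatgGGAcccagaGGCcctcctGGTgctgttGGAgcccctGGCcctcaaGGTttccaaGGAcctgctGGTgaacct
Col3a1 (chr1:45323762-45325413, plus strand): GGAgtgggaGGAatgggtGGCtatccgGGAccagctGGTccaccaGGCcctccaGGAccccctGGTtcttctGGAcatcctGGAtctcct
Col5a1 (chr2:27964080-27965295, plus strand): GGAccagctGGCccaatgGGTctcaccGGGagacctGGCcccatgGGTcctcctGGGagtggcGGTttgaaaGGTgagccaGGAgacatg
Col5a2 (chr1:45422404-45426996, minus strand): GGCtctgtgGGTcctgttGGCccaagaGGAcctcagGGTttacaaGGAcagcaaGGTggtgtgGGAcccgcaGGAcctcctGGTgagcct
Col6a3 (chr1:90791924-90792445, minus strand): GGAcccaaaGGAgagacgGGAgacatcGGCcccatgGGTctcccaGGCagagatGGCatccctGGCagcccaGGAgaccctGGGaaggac
Col4a1 (chr8:11247024-11267614, minus strand): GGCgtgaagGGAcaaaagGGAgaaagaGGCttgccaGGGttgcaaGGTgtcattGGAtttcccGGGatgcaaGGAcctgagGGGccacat
The unbroken run was long in the fibrillar chains and short elsewhere. It held 338 units in Col1a1, 339 in Col1a2, 344 in Col3a1, 338 in Col5a1 and 339 in Col5a2, but 216 in Col24a1 and 217 in Col27a1. In the 6 type IV chains no run exceeded 66 units, although their runs of at least 5 units added up to 427 to 451 units, against 327 to 364 in the fibrillar chains. The 6 type VI chains had 104 to 111 units in all, and the 9 FACIT chains 50 to 343. Within the run, the share of G or C at the third codon position was 31.6% in Col1a1, 28.7% in Col1a2, 43.6% in Col5a1, 26% in Col5a2 and 23.5% in Col3a1. The partners Col5a1 and Col5a2 thus differed more in base composition than Col1a1 and Col1a2.

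Collagen messages were dominated by a few chains. The means over the 4 libraries were at least 100 CPM for 10 members, 10 to 100 CPM for 7, 1 to 10 CPM for 8 and under 1 CPM for 19. All 44 together took 0.567% of the counts in normal glucose replicate 1, 0.619% in normal glucose replicate 2, 0.420% in high glucose replicate 2 and 0.595% in high glucose replicate 4. Col1a1 alone held 33.2%, 44.5%, 28.8% and 34.7% of the collagen counts in that order of libraries. Per kilobase of the longest transcript the 5 highest levels (mean CPM per kilobase) were 336 for Col1a1, 178 for Col1a2, 79.9 for Col6a3, 48.8 for Col6a1 and 42.6 for Col5a1. Type I and type VI chains thus led by length-corrected level too.

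**Figure D1:**
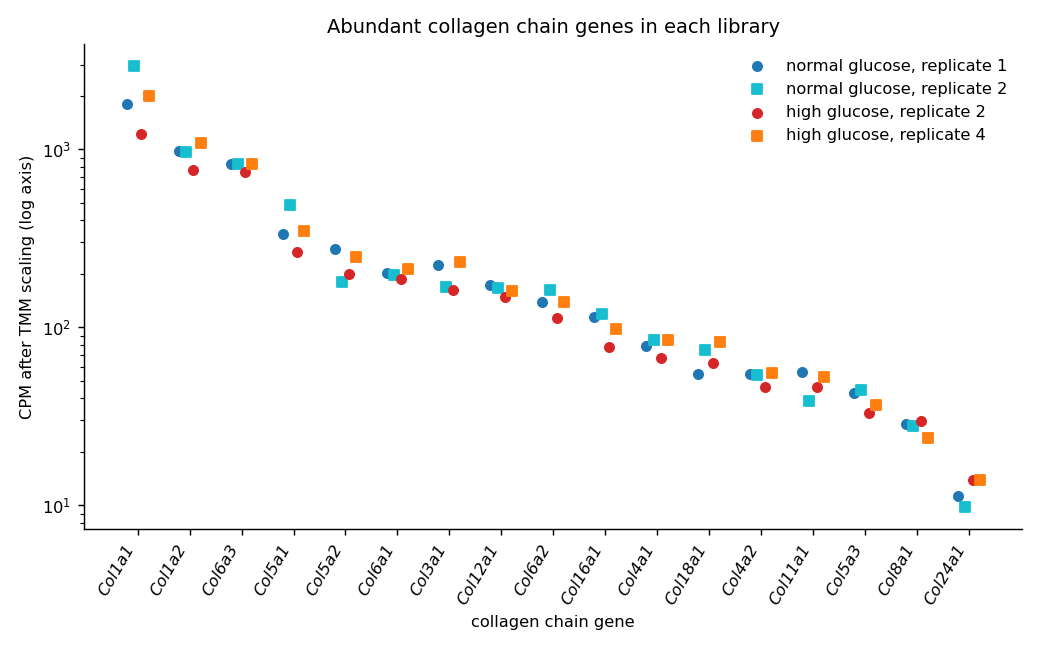
CPM after TMM scaling (log axis) of the 17 collagen chain genes with a mean of at least 10 CPM, 1 point per library, blue tones for normal and red tones for high glucose. Col1a1 and Col5a1 are highest in normal glucose replicate 2, and high glucose replicate 2 is the lowest library for 12 of the 17 genes.

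None of the 38 tested collagen chain genes rose or fell in high glucose (edgeR's quasi-likelihood test, adjusted over all 16270 genes tested; smallest adjusted p = 0.65). The background was as sparse: 0.0123% of all genes tested passed, all of them higher, and 0% fell. DESeq2, edgeR's exact test and limma-voom also called 0 members. At an unadjusted p under 0.05 there was 1 member, lower in high glucose, against 5.45% of all genes tested (2.22% higher, 3.23% lower). The median log2 fold change of the 38 was -0.08, beside -0.004 for all genes, with 27 members below 0 and 11 above. Among all genes tested 8259 lay below 0 and 8008 above. Scaling by library totals gave 24 members below and 14 above, where 45% of all genes lay below 0. Without high glucose replicate 2 the split was 20 below and 20 above among 40 members tested, and with a GC offset per library 23 below and 15 above. Groups did not overlap for 11 members (9 lower, 2 higher), 28.9% of those tested, a share close to the 32.5% of all genes tested (16.2% lower, 16.3% higher).

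How much change these libraries could miss is given by the intervals, which cover only the spread between libraries. Since that spread could be purely technical, they set no bound for separate cultures or animals. Among the 17 members with a mean of at least 10 CPM, the 95% interval of the fold change lay within a 2-fold change either way for 16, Col1a1 being the exception. It lay within 1.5-fold for 10. Of all 38, 22 had intervals within 2-fold, and the other 16 were Col1a1 and 15 chains below 10 CPM. Calls also rested on 1 control library. Without normal glucose replicate 1, which leaves replicate 2 as the only normal glucose library and assumes that it varies as the high glucose group does, 4 members fell: Col1a1 (log2 fold change -0.87, adjusted p = 0.00304, edgeR), Col5a1 (-0.67, 0.0109), Col20a1 (-1.5, 0.00117) and Col17a1 (-1.51, 0.00349). That fit called 16.2% of all its genes (7.56% higher, 8.67% lower), and without any other library no member was called.

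**Figure D2:**
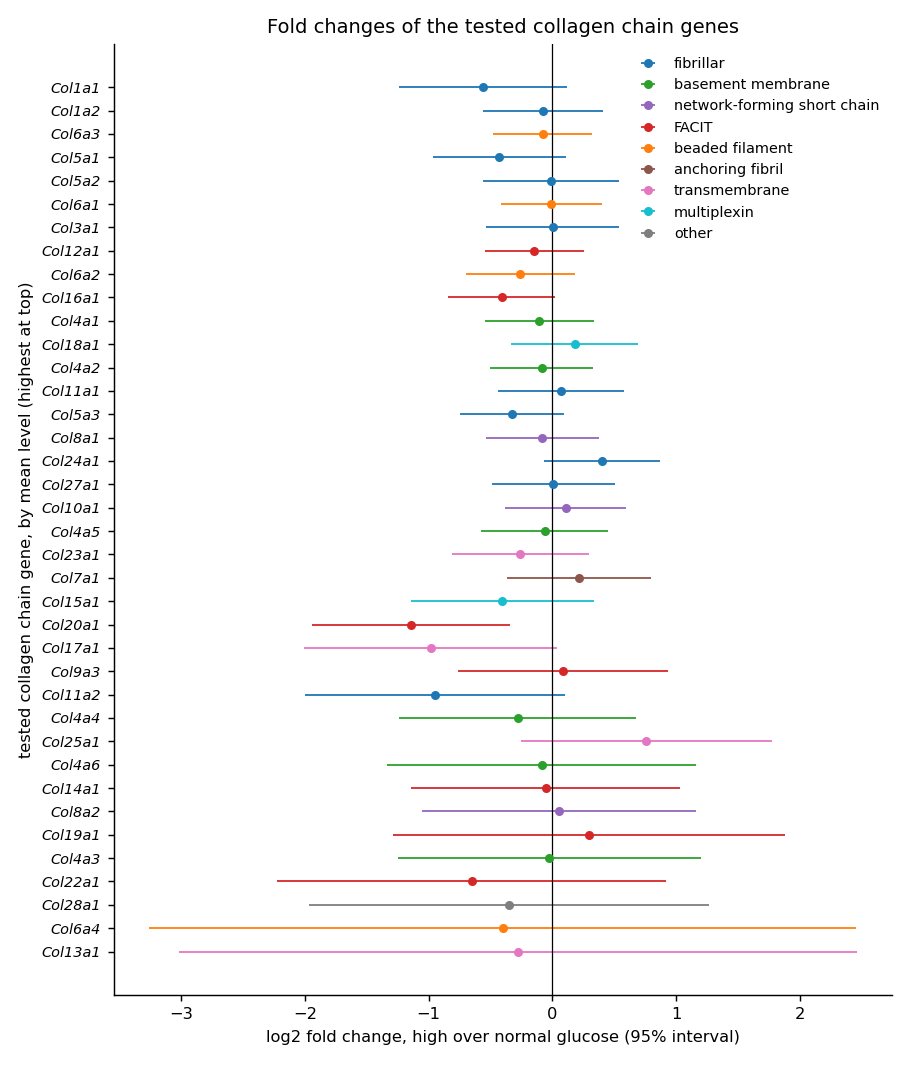
Log2 fold change of high over normal glucose with its 95% interval for the 38 tested collagen chain genes, ordered by mean level with the highest at the top and coloured by class. The interval of 1 gene, Col20a1, lies wholly below 0, and the widest intervals belong to the scarcest chains.

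Type I collagen, the main protein of tension-bearing fibrils, is built from the products of Col1a1 and Col1a2. Col1a1 (ENSMUSG00000001506.10, chromosome 11, 94936224 to 94953042) had 1811 and 2941 CPM in replicates 1 and 2 of normal glucose, against 1215 and 1999.5 CPM in replicates 2 and 4 of high glucose. High glucose replicate 4 lay between the normal glucose libraries, so the groups overlapped, and each group's libraries differed by over 1.5-fold. The log2 fold change was -0.56 (95% interval -1.24 to 0.12, adjusted p = 0.974, edgeR). It was -0.17 without normal glucose replicate 2, -0.23 with high glucose replicate 2 left out and -0.97 without high glucose replicate 4. Col1a2 (chromosome 6, 4504814 to 4541544) had 984, 972, 762 and 1094 CPM in the same order, and again only high glucose replicate 2 was low. Its log2 fold change was -0.08 (-0.56 to 0.41).

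The other abundant fibrillar chains likewise overlapped between groups, apart from Col5a3 and Col24a1. Col3a1, the type III chain of distensible tissue such as vessel wall, had 225 and 169 CPM in normal and 163 and 232 CPM in high glucose, with a log2 fold change of 0.00 (0.0042, interval -0.53 to 0.54). Type V chains nucleate fibrils and limit their diameter. Among them Col5a1 had 337 and 485 CPM in normal and 264 and 347 CPM in high glucose, which gave a log2 fold change of -0.43 (-0.97 to 0.11) that was -0.14 without normal glucose replicate 2 and -0.23 with high glucose replicate 2 left out. Col5a2 had 274 and 179 CPM against 201 and 249 CPM (-0.01, interval -0.56 to 0.54), so normal glucose replicate 2 was its lowest library and the highest for Col5a1. Col5a3 had 42.8 and 44.7 CPM against 32.9 and 36.8 CPM, lower in both high glucose libraries, with a log2 fold change of -0.33 (-0.75 to 0.09, unadjusted p = 0.109). Its difference did not pass the test. Exons of Col5a1 overlap antisense genes over 212 bases, and exons of Col3a1 overlap a gene on the same strand over 141 bases. How reads of these stretches were counted is not stated.

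Minor fibrillar chains were split in direction. Col11a1, a type XI chain best known from cartilage, had 56.1 and 38.6 CPM in normal and 46.5 and 52.8 CPM in high glucose (log2 fold change 0.07, interval -0.44 to 0.58). Col24a1 was the only abundant member higher in both high glucose libraries, with 11.3 and 9.77 CPM in normal against 13.9 and 13.9 CPM in high glucose (13.937 and 13.902). Its log2 fold change of 0.40 (-0.07 to 0.87, unadjusted p = 0.0856, adjusted p = 0.9555) did not pass. Col27a1 had 7.87, 9.29, 8.99 and 8.25 CPM. Col2a1, the main chain of cartilage fibrils, was scarce, with 4, 6, 7 and 17 counts, and was not tested. Col11a2, its fibril partner there, had 76 and 50 counts (1.07 and 1.15 CPM) in normal and 23 and 60 counts (0.361 and 0.774 CPM) in high glucose. That is a log2 fold change of -0.95 with an interval of -2.0 to 0.10 (unadjusted p = 0.0711), and it was -0.50 without high glucose replicate 2 and -1.61 without high glucose replicate 4. Over the class, 10 of 11 members were tested, 0 rose or fell, 6 lay below 0 and 4 above, and the median was -0.04. The median was 0.14 without high glucose replicate 2 and -0.32 without high glucose replicate 4, so its sign rested on single libraries.

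Type IV chains of the basement membrane were present mainly as the widespread pair Col4a1 and Col4a2. Col4a1 (chromosome 8, 11198423 to 11312826, minus strand) had 78.4 and 85.5 CPM in normal and 67.4 and 85.0 CPM in high glucose. Col4a2 (chromosome 8, 11312805 to 11449287, plus strand) had 54.6 and 54.0 CPM against 46.6 and 55.7 CPM. For both, high glucose replicate 2 was the lowest library and the groups overlapped, with log2 fold changes of -0.10 (-0.54 to 0.33) and -0.09 (-0.51 to 0.33). The genes stand head to head with their annotated starts overlapping by 22 bases, and because the use of strand in counting is not stated, reads of that stretch cannot be assigned to one of them.

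The tissue-restricted type IV chains were scarce. Col4a5, which joins the kidney and smooth muscle networks, had 7.45, 6.38, 6.97 and 6.29 CPM, and its head-to-head neighbour Col4a6 (1308 bases apart) had 0.606, 0.436, 0.298 and 0.683 CPM. Col4a3 and Col4a4, the chains of the kidney filter, start 71 bases apart. Col4a3 had 12 to 24 counts and Col4a4 47 to 54 counts per library, and 563 bases of Col4a3's exons overlap an antisense gene. All 6 type IV chains were tested, 0 rose or fell, and all 6 estimates lay below 0, with a median of -0.09 and the lowest at -0.28 in Col4a4. Without high glucose replicate 2 that median was 0.03. The groups overlapped for each of the 6.

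Type VI chains, whose beaded filaments link cells to the matrix around them, formed the second most abundant class. Col6a3, the largest chain, had 827 and 832 CPM in normal and 743 and 829 CPM in high glucose (log2 fold change -0.08, interval -0.48 to 0.32). Col6a1 had 203, 198, 187 and 212 CPM in the same order, with a log2 fold change of -0.01 (-0.42 to 0.40). These were the steadiest abundant chains, the lowest library again being high glucose replicate 2. Col6a2 had 139 and 163 CPM in normal and 113 and 139 CPM in high glucose. Its groups did not overlap, but only narrowly (139.1 against 138.9 CPM), and the log2 fold change of -0.26 (-0.70 to 0.19) did not pass. It was -0.11 without high glucose replicate 2 and -0.14 with normal glucose replicate 2 left out. The later chains Col6a4, Col6a5 and Col6a6 had 0 to 15 counts per library. Col6a5 and Col6a6 were not tested, and they share 3.94% and 4.63% of their 32-base stretches with other genes, mostly each other. Of the 4 tested members 0 rose or fell, with a median of -0.17, and the median was 0.01 without high glucose replicate 2.

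FACIT chains, which decorate fibrils, were represented by Col12a1 and Col16a1. Col12a1 had 173 and 167 CPM in normal and 148 and 160 CPM in high glucose, and Col16a1 had 114 and 119 CPM against 77.5 and 97.7 CPM. For both, each high glucose level lay under both normal glucose levels. The log2 fold changes were -0.15 (-0.55 to 0.25) and -0.41 (-0.84 to 0.02, unadjusted p = 0.0615, adjusted p = 0.934), and neither passed. Without high glucose replicate 2 they were -0.08 and -0.24. Col20a1, a little-studied FACIT chain, had the smallest p of all members. It had 186 and 199 counts (2.62 and 4.56 CPM) in normal and 118 and 107 counts (1.85 and 1.38 CPM) in high glucose, which gave a log2 fold change of -1.15 (-1.95 to -0.34, unadjusted p = 0.0106, adjusted p = 0.65, edgeR). Without normal glucose replicate 2 it was -0.70. Its exons overlap another gene on the same strand over 79 bases. Col14a1, a FACIT chain of many mature connective tissues, had 0.535, 0.436, 0.518 and 0.426 CPM.

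The remaining FACIT chains were near the limit of counting. Col22a1 had 16, 9, 12 and 7 counts, Col19a1 18, 20, 43 and 15, and the type IX chains of cartilage, Col9a1 and Col9a2, 0 to 8 counts each without being tested. Col9a3, at 35 to 80 counts, shares 234 exon bases with the antisense gene Tcfl5, so its reads are uncertain. Over the class, 7 of 9 members were tested, 0 rose or fell, 5 lay below 0 and 2 above, and the median was -0.15. Summed FACIT levels were 292 and 293 CPM in normal against 230 and 261 CPM in high glucose, the only class whose sums did not overlap between the groups. The exact two-sided permutation test over libraries gave p = 0.333, the smallest that 2 against 2 libraries allow, so it cannot pass 0.05.

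The network-forming short chains Col8a1, Col8a2 and Col10a1 build hexagonal lattices, Col8a1 in vessel walls and Col10a1 in growth plate cartilage. Col8a1 had 28.6 and 28.1 CPM in normal and 29.6 and 24.0 CPM in high glucose. Col10a1 had 7.68, 8.83, 8.58 and 9.18 CPM, and Col8a2 stayed under 0.5 CPM in every library, at 0.437, 0.413, 0.392 and 0.490 CPM. None of the 3 passed and each overlapped between groups, with log2 fold changes of -0.08 (-0.53 to 0.37), 0.11 (-0.38 to 0.60) and 0.06 (-1.05 to 1.17). The Col10a1 level stood apart from the cartilage chains Col2a1 and Col9a1, which had at most 17 and 4 counts in any library.

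Multiplexins sit in basement membrane zones, and Col18a1 carries the fragment endostatin, an inhibitor of vessel growth. Col18a1 had 54.8 and 74.4 CPM in normal and 63.2 and 83.3 CPM in high glucose, which gave a log2 fold change of 0.18 (-0.33 to 0.69), with the libraries of the groups interleaved. Col15a1 had 3.21 and 4.54 CPM against 2.21 and 3.61 CPM, a log2 fold change of -0.40 (-1.15 to 0.34) that was -0.08 without high glucose replicate 2 and -0.14 with normal glucose replicate 2 left out. Col7a1, the anchoring fibril chain of skin, had 5.56, 3.92, 5.40 and 5.65 CPM, normal glucose replicate 2 alone being low.

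Of the 4 transmembrane collagens Col17a1, a part of the epithelial hemidesmosome, showed the widest gap between libraries in CPM. It had 1.24 and 3.10 CPM in normal and 1.08 and 1.08 CPM in high glucose (1.0829 and 1.0833), which gave a log2 fold change of -0.98 (-2.01 to 0.04, unadjusted p = 0.0578). Only normal glucose replicate 2 was high, and without that library no member was called. Epithelial markers, at 16.2 and 14.6 CPM in normal and 7.28 and 6.82 CPM in high glucose, summed lower in high glucose, mostly through Krt19, with 12.8 and 12.1 CPM in normal glucose (log2 fold change -1.40, unadjusted p = 0.00014, adjusted p = 0.285, edgeR). The other 3 tested epithelial markers overlapped between the groups, Cdh1 with a log2 fold change of 0.85, and the part of such markers in the Col17a1 level was not tested. Without normal glucose replicate 2 the Col17a1 log2 fold change was -0.20. Col25a1, a chain needed for motor nerve ingrowth into muscle, had 32 and 17 counts (0.451 and 0.390 CPM) in normal and 42 and 60 counts (0.659 and 0.774 CPM) in high glucose, which gave a log2 fold change of 0.76 (-0.25 to 1.78, unadjusted p = 0.123). Col23a1 had 4.93 and 6.42 against 4.80 and 4.67 CPM, and Col13a1 1 to 13 counts per library. Of the last class, Col28a1 had 5 to 17 counts, and Col26a1 had 3 counts in normal glucose replicate 1 and 0 in the other 3 libraries, where 3 counts, the limit a count of 0 allows, would be 0.0387 to 0.0688 CPM. Such limits cover counting error only.

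Summed over all 44 members, collagen messages reached 5460 and 6616 CPM in normal and 4220 (4219.5) and 5757 CPM in high glucose. The means were 6038 ± 817 and 4988 ± 1087 CPM (SD, n = 2 each, exact two-sided permutation test p = 0.667, with 0.333 the smallest possible). High glucose replicate 4 lay between the normal glucose libraries. The log2 ratio of the means was -0.28 (-0.275), and it was -0.07 without high glucose replicate 2, -0.13 with normal glucose replicate 2 left out, -0.41 without normal glucose replicate 1 and -0.52 with high glucose replicate 4 left out. Its size thus rested on single libraries of both groups. Without Col1a1 the sums were 3649, 3675 (3674.5), 3005 and 3757 CPM, and the permutation p was 1. Fibrillar chains summed to 3749, 4851, 2708 and 4034 CPM, beaded filament chains to 1169, 1194, 1044 and 1180.0 CPM, and type IV chains to 142, 148, 122 and 149 CPM. High glucose replicate 2 was the lowest library in each of these 3 classes.

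**Figure D3:**
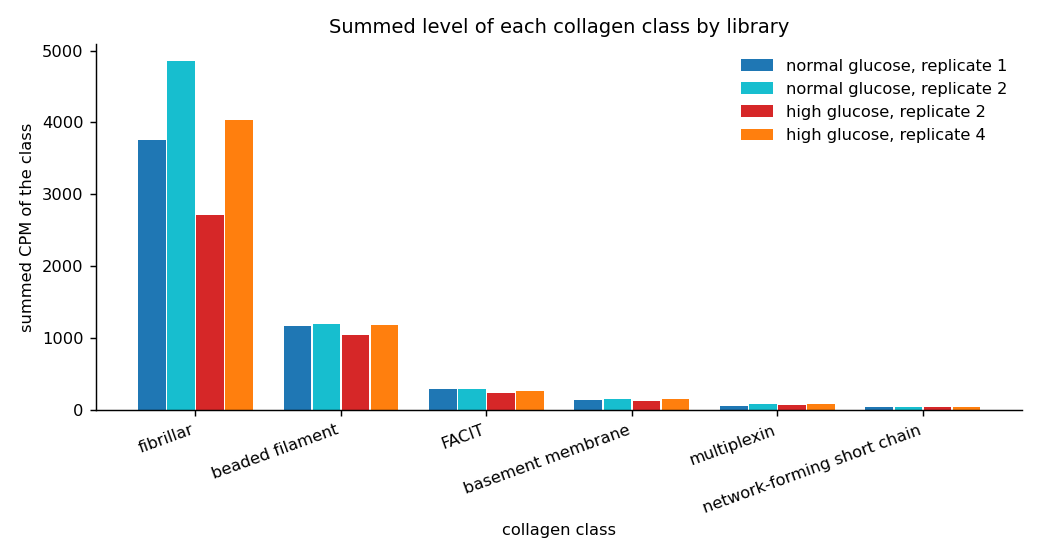
Summed CPM of the 6 most abundant collagen classes, 1 bar per library. The fibrillar class runs from 2708 CPM in high glucose replicate 2 to 4851 CPM in normal glucose replicate 2, while the beaded filament class stays between 1044 and 1194 CPM.

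Ratios between chains within a library do not move with library scaling. Per kilobase of the longest transcript, the ratio of Col1a1 to Col1a2 was 1.66 and 2.73 in replicates 1 and 2 of normal glucose, and 1.44 and 1.65 in replicates 2 and 4 of high glucose. The ratio of Col5a1 to Col5a2 was 0.969, 2.13, 1.04 and 1.10. In both pairs normal glucose replicate 2 stood far above the other 3 libraries, which lay close to each other whichever group they belonged to. Col4a1 to Col4a2 gave 1.40, 1.54, 1.41 and 1.49, and Col6a3 to Col6a1 gave 1.65, 1.70, 1.61 and 1.59. Col3a1 to Col5a2, tail-to-tail neighbours on chromosome 1 with 24614 bases between them, gave 0.976, 1.12, 0.966 and 1.11. Col6a1 to Col6a2 gave 1.75, 1.46, 1.98 and 1.83, higher in both high glucose libraries, with no test made.

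The length used sets the size of these ratios but not their order among libraries. With the union of all annotated exons, Col1a1 to Col1a2 was 4.61 ± 1.59 in normal and 3.24 ± 0.313 in high glucose (SD, n = 2 each), against 2.19 ± 0.756 and 1.54 ± 0.149 with the longest transcript. The union counts 12426 bases for Col1a2, whose longest transcript has 5348, and 6563 against 5930 for Col1a1. The other ratios by the union, in normal and high glucose, were 2.22 ± 1.18 and 1.53 ± 0.0632 for Col5a1 to Col5a2 and 1.34 ± 0.0922 and 1.32 ± 0.0507 for Col4a1 to Col4a2. They were 2.55 ± 0.322 and 3.02 ± 0.168 for Col6a1 to Col6a2 and 1.51 ± 0.0323 and 1.44 ± 0.015 for Col6a3 to Col6a1.

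**Figure D4:**
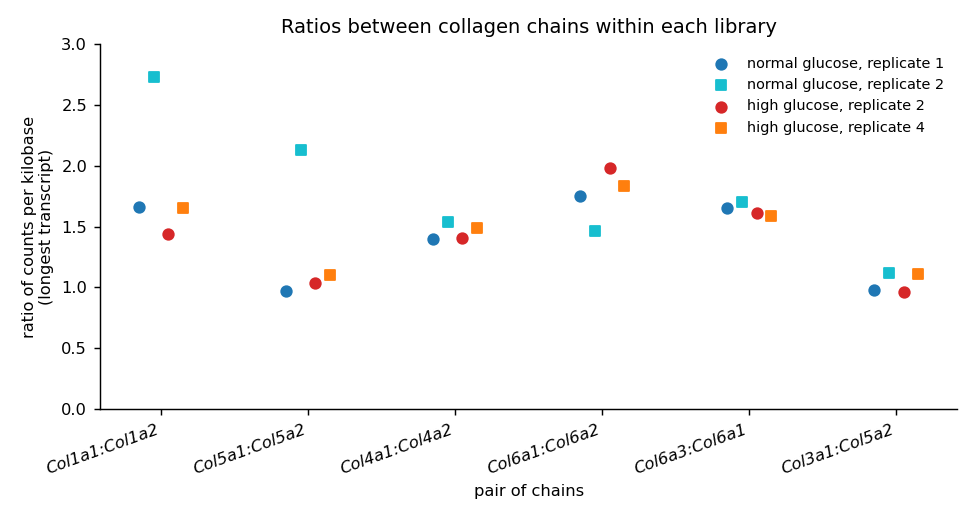
Ratios of counts per kilobase of the longest transcript for 6 pairs of collagen chains, 1 point per library. Normal glucose replicate 2 lies at 2.73 for Col1a1 to Col1a2 and 2.13 for Col5a1 to Col5a2, above the other 3 libraries, while the Col4a1 to Col4a2 points all lie between 1.40 and 1.54.

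The deviation of normal glucose replicate 2 was also set against GC content among the collagens. Over the 17 members with a mean of at least 10 CPM, its log2 difference from the mean of the other 3 libraries ran from -0.42 in Col11a1 (48.0% GC) to 0.84 in Col1a1 (58.9% GC). Pearson's r with GC content was 0.626 and Spearman's rho 0.672, given as a description of genes that share libraries. Over the 34 members with at least 10 counts in every library they were 0.346 and 0.365. The 8 members of lower GC content (46.8% to 55.2%) had a median difference of -0.12 with 4 above 0, and the 9 of higher content (55.7% to 61.6%) 0.17 with 8 above 0. Col4a2 (60.6% GC, difference 0.05) and Col1a2 (55.7%, 0.05) were hardly displaced, so members of like GC content differed. The log2 difference of normal glucose replicate 1 from the high glucose libraries had an r of -0.012 over the 17 members and 0.361 over the 34. Its rho with GC content was 0.081 and 0.154. The differences of replicates 1 and 2 were taken from unlike references, so their r and rho cannot be compared. As deviations from the mean of the 4 libraries, over 15604 genes, the replicates went opposite ways with GC content. There the correlation was -0.199 for normal glucose replicate 1 and 0.378 for replicate 2. The part of GC content in the group comparison was not tested. A GC offset per library is fitted to these same libraries, so it can also take up a group difference that follows GC content. A fit with that offset, chosen after seeing the data, called 0 members and gave a median of -0.05. In it the log2 fold change was -0.36 for Col1a1, -0.26 for Col5a1, -0.16 for Col16a1 and -0.07 for Col5a3, each over 1.5 times smaller in size than without the offset, and 0.43 for Col18a1, over 1.5 times larger. Estimates further below 0 with the offset were those of Col12a1 (-0.215, from -0.146), Col8a1 (-0.166, from -0.080) and Col5a2 (-0.0505, from -0.013), among others that moved either way.

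**Figure D5:**
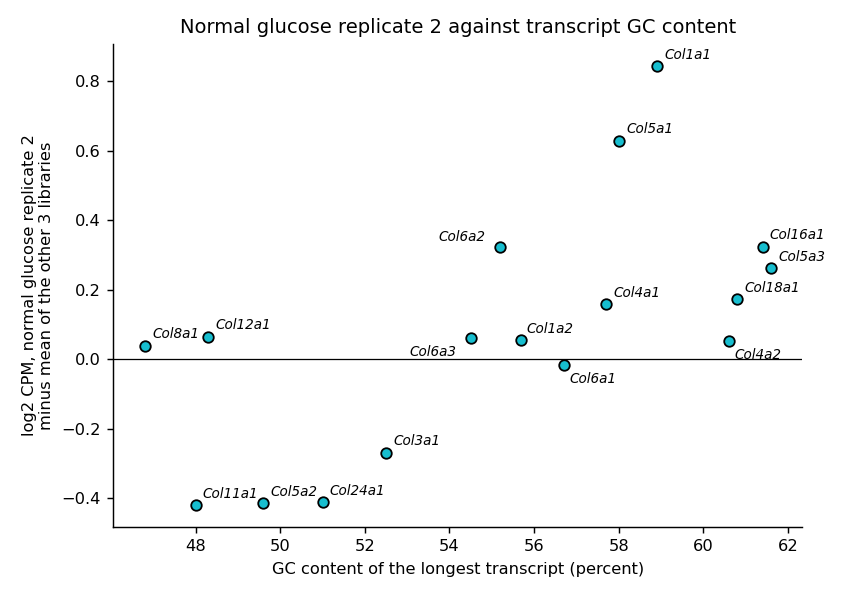
For the 17 abundant collagen chain genes, transcript GC content (percent) against the log2 CPM of normal glucose replicate 2 minus the mean of the other 3 libraries. Col1a1 and Col5a1 lie highest at 0.84 and 0.63, and Col11a1, Col5a2 and Col24a1 lowest at -0.42 to -0.41.

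Genes that make, cross-link, bind and remove collagen were counted from 8 lists. Of 95 such genes in the files 92 were tested, and 0 rose or fell (edgeR, smallest adjusted p = 0.399). At an unadjusted p under 0.05, 11 were lower and 0 higher in high glucose, against 3.23% and 2.22% of all genes tested. The median was -0.11, with 60 below 0 and 32 above, beside 8259 below and 8008 above among all genes tested. DESeq2 and edgeR's exact test each called 2 lower, Ctgf among them, where 38 and 55 of all genes fell. With limma-voom 0 were called. Without normal glucose replicate 1, 21 fell and 6 rose, in the fit that called 16.2% of all genes. Without normal glucose replicate 2 the log2 fold changes of Ctgf, Loxl2 and Pcolce2 were -0.91, -0.73 and -0.76. With all libraries they were -1.38, -0.75 and -0.435.

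The enzymes that cross-link collagens, fibrillar or type IV, had lower estimates throughout. All 7 tested genes lay below 0 and 6 did not overlap between groups, with 0 past the threshold and a median of -0.23. Of all genes tested, 32.5% did not overlap, 16.2% being lower. Loxl2, a lysyl oxidase acting on basement membrane and fibrillar collagen, had 391 and 405 CPM in normal and 220 and 252 CPM in high glucose (log2 fold change -0.75, unadjusted p = 0.00283). Lox had 1827 and 2729 against 1231 and 1381 CPM, Pxdn, the peroxidase that links type IV chains, 241 and 278 against 224 and 215 CPM, and Tgm2, a transglutaminase, 46.7 and 54.6 against 44.7 and 44.8 CPM. The log2 fold changes of Loxl2 and of Lox (-0.80) were larger in size than that of any abundant collagen chain, a difference that was not tested.

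Of 18 hydroxylation and folding genes, 13 lay below 0 and 5 above, with a median of -0.08. Plod2, the lysyl hydroxylase of the chain ends, had 903 and 893 CPM in normal and 584 and 614 CPM in high glucose, and Plod1, which acts in the helix, 458 and 610 against 365 and 364 CPM (unadjusted p = 0.00889 and 0.0238). The prolyl hydroxylase subunits P4ha2 (210 and 169 against 142 and 145 CPM) and P4hb (1909 and 1879 against 1464 and 1515 CPM) were lower in both high glucose libraries. Of the 18 genes, 6 were lower without overlap and 2 higher (P3h1 and P3h2), against 16.2% and 16.3% of all genes tested. Of 7 secretion genes 4 lay above 0 (median 0.03). There Mia3, which loads collagen into transport carriers, had 82.3 and 92.6 against 93.7 and 96.1 CPM, Sec23a 158 and 133 against 183 and 177 CPM, and Sec13 68.2 and 45.0 against 71.7 and 70.6 CPM. Creb3l1, a transcription factor that induces type I collagen, had 51.5, 107, 36.0 and 63.3 CPM. Its libraries stood in the same order as those of Col1a1, but so did those of Tgfb1, Fkbp10, Mrc2 and Ddr1, among others. A link between Creb3l1 and Col1a1 was not tested. Among 8 tested propeptide cleavage genes (median -0.14), Adamts2 had 15.4 and 21.1 against 11.9 and 15.3 CPM, Adamts3 5.30 and 5.85 against 7.67 and 6.14 CPM, Pcolce2 57.1 and 33.9 against 30.3 and 37.1 CPM, and Tll1 100.3 and 97.8 against 96.6 and 133 CPM.

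No partner, receptor, degradation gene or regulator passed edgeR's quasi-likelihood test. Among 14 fibril partners (median -0.14), Thbs1 had 5889 and 5803 CPM in normal and 3870.2 and 3730.4 CPM in high glucose (unadjusted p = 0.00506), Tnxb 36.4 and 45.1 against 22.8 and 32.8 CPM, Prelp 127 and 218 against 137 and 115 CPM, and Postn 3.92 and 4.66 against 3.25 and 3.02 CPM. The 10 tested receptor and uptake genes had a median of -0.16. There the collagen receptor Ddr2 had 221 and 213 against 261 and 246 CPM, Itga1, the integrin subunit for type IV collagen, 17.5 and 12.6 against 21.2 and 19.7 CPM, Ddr1 63.7 and 117 against 59.8 and 74.6 CPM and Itga11 2.03 and 3.44 against 1.82 and 2.04 CPM. Among 12 degradation genes (median -0.07), the protease inhibitors Timp3 (64.6 and 76.5 against 50.7 and 44.0 CPM, unadjusted p = 0.0153) and Timp2 (4030.3 and 5741 against 3982 and 3908 CPM) and the collagen-degrading protease Ctsk (48.7 and 36.2 against 31.5 and 31.1 CPM) were lower in both high glucose libraries, as was Timp4 (0.887 and 1.35 against 0.863 and 0.529 CPM). Of the 12 degradation genes, 4 were lower without overlap and 2 higher (Mmp9 and Ctsb), against 16.2% and 16.3% of all genes tested. Of 16 TGF-beta and transcription genes (median -0.07) Ctgf, a TGF-beta target that promotes matrix deposition, had 370 (369.9) and 658 CPM in normal and 199 and 196 CPM in high glucose. Its unadjusted p of 0.000805 was the smallest of all companions (adjusted p = 0.399, edgeR's quasi-likelihood test), and it passed with DESeq2 (adjusted p = 0.00042) and edgeR's exact test (adjusted p = 0.00181). Sox9, the regulator of cartilage collagens, had 64.3 and 115 against 38.9 and 53.6 CPM, and Smad7, the TGF-beta inhibitor, 69.3 and 95.7 against 52.5 and 61.3 CPM.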

How the data were processed

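Whole-number counts per gene symbol were deposited by the authors, 1 file per library, with 23282 rows. Per the submitters' processing notes, TopHat, edgeR and the build mm10 were used, without versions or roles. How reads were counted, with which tool and annotation, whether by strand, and what was done with ambiguous reads is not given in the sources used here. For 35 symbols, several rows were added into 1. Genes passing filterByExpr were tested with edgeR 4.0.16 (limma 3.58.1, R 4.3.3) by the quasi-likelihood test, with TMM scaling and the group as the only term, two-sided, and Benjamini-Hochberg adjustment over all 16270 genes tested (threshold 0.05). The common biological coefficient of variation was 20.0%. The 95% intervals came from the same fit. Lengths, GC content, overlaps and coding sequences came from GENCODE M21 (GRCm38).

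The members, classes and companion lists were chosen with earlier results of these data known. Named in full were members with a mean of at least 10 CPM, the 5 others of smallest p, any past the threshold, and, from each companion list, the 4 genes of smallest p. The values of 1 companion gene are not reported here. The alternatives were DESeq2 1.42.0, edgeR's exact test and robust fit, limma-voom, DESeq2 size factors, upper quartile scaling, library totals, 2 other filters, each library left out and, for ratios, the longest transcript. A GC offset and rows of a symbol kept apart were added after seeing the data. The limit given for a count of 0 is 3 counts per library.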

Additional observations from a re-analysis of the deposited data

How the results depend on the processing

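No paired analysis was possible because number 2 is the only replicate number found in both groups. No collagen chain gene rose under any alternative run, and none fell except without normal glucose replicate 1 (0 to 4 fallen over the leave-one-out fits). Companion genes fallen were 2 with DESeq2, 2 with edgeR's exact test, 4 with no filter beyond 1 count and 0 to 21 over the leave-one-out fits, and those risen 0 to 6. Over all genes, 36 rose and 38 fell with DESeq2, 55 and 55 with the exact test, 62 and 65 with no filter, 5 rose with the GC offset (chosen after seeing the data), and leaving out 1 library gave 20 to 1262 risen and 12 to 1446 fallen.

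Leaving out 1 library moved the median of all tested collagen chain genes from -0.160 to -0.016, of basement membrane chains from -0.153 to 0.031, of beaded filament chains from -0.224 to 0.011, of FACIT chains from -0.241 to -0.121 (-0.277 with at least 1 CPM in 2 libraries), of fibrillar chains from -0.317 to 0.142, of network-forming chains from 0.009 to 0.167 and of transmembrane chains from -0.844 to 0.304. With the longest transcript in place of the union of exons, ratios in normal and high glucose were 2.19 and 1.54 (Col1a1:Col1a2), 1.47 and 1.45 (Col4a1:Col4a2), 1.60 and 1.90 (Col6a1:Col6a2) and 1.68 and 1.60 (Col6a3:Col6a1), and 1.07 in high glucose for Col5a1:Col5a2. The cause is the length itself.

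Signs turned, with no call, for members near 0. With upper quartile scaling Col5a2 was 0.0016 and Col6a1 0.012, with library totals 0.014 and 0.033, with limma-voom Col5a2 0.0094 and Col3a1 -0.0050, and with the GC offset Col1a2 0.013, Col6a1 0.10, Col4a1 0.037 and Col4a2 0.13. The leave-one-out ranges were -0.36 to 0.17 for Col1a2, -0.16 to 0.011 for Col6a3, -0.29 to 0.33 for Col5a2, -0.10 to 0.091 for Col6a1, -0.275 to 0.25 for Col3a1, -0.28 to 0.067 for Col4a1, -0.032 to 0.42 for Col18a1, -0.22 to 0.047 for Col4a2, -0.18 to 0.36 for Col11a1 and -0.23 to 0.063 for Col8a1. Apart from the length for the ratios, the cause of these moves was not tested. There were 2 libraries per group and, for the 19 chains under 1 CPM, few counts, and the share of each in the interval widths was not tested.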
